A study of Drosophila melanogaster with 6 samples.

Results

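The genes described here are the DNA damage checkpoint and repair genes of Drosophila melanogaster, listed by name and measured in whole embryos of a wild-type and a mutant stock. The list held 44 names for 42 genes, since mus308 is an older name of PolQ and mus309 an older name of Blm. A probe set with a single gene symbol was found for 36 of the 42 genes, out of 11982 genes so represented on the array. Of the 36, 33 were matched by the listed symbol and 3 through a RefSeq synonym, Lig4 as DNAlig4, mus210 as Xpc and Parp as Parp1. The remaining 6 (mus201, spn-B, spn-D, spel1, phr and phr6-4) were not analysed here, so neither photolyase is covered. Where a gene had several probe sets the one with the highest mean over the 6 arrays was used, which concerned grp and Fancd2.

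The w1118 group was the wild type, and the other group carried a knock-out of clbn (Caliban), the fly homologue of NEMF, which acts on stalled ribosomes. The labels give w1118 as the strain background of both groups, and name neither the kind of clbn allele nor any backcrossing. Flies were kept at 25 °C, their embryos aged 0 to 24 h were taken, and each group was measured on 3 Affymetrix arrays. Each genotype is a single stock, so an effect of clbn and any other difference between the stocks cannot be told apart. Nothing in the labels tells whether the 3 samples of a group were collected separately, and the p-values therefore cover the spread among these samples alone, which may be technical. In RNA from whole embryos, fewer cells of a type and less RNA per cell cannot be told apart.

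Cells repair DNA by several routes. Broken ends can be joined directly by the Ku proteins and a dedicated ligase, or copied from a sister sequence by homologous recombination after the ends have been trimmed. Mismatch repair corrects copying errors, while excision repair removes damaged bases or short damaged stretches. Checkpoint kinases sense the damage and slow the cell cycle. In the fly embryo much of this machinery is supplied by the mother, because the first nuclear divisions run very fast and precede most transcription of the embryo's own genes.

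Values are log2 expression as deposited, and a difference is the knock-out mean minus the w1118 mean. A gene was called changed at a Benjamini-Hochberg adjusted p below 0.05 in limma, adjusted over all 18769 probe sets. The array medians lay between 6.17 and 6.36 and the first quartiles between 4.28 and 4.36. The clbn probe set fell from 8.19 ± 0.30 to 5.28 ± 0.14 (SD, n = 3 each), a log2 difference of −2.91 (adjusted p = 7.01e-05). Knock-out array 1 stood apart in its RNA quality controls, with a difference of 1.24 log2 between 3′ and 5′ control probe sets against 0.667 to 0.779 on the other 5 arrays. Genes of zygotic segmentation, which mark embryos, had mean levels between 8.71 and 9.30 on the 6 arrays. A list of adult testis and accessory gland genes had a mean of at most 4.17 on any array, below the first quartile. The yolk and chorion genes of adult females had means between 5.13 and 5.32, above the first quartile and below the median.

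In the knock-out, 5 of the 36 repair and checkpoint genes rose and none fell in the fit without pairing. With the replicate number as a block, which compares arrays of the same number, the same 5 were called and Msh6 was called lower (adjusted p = 0.0256 by limma). In the fit without pairing, calls were made for 4.51% of all genes, 1.88% higher and 2.63% lower. With the block, 6.44% of all genes were called. The 5 were Ku80 and DNAlig4 of end joining, XRCC1 of single-strand break repair, Hus1-like of the checkpoint clamp and the transcription factor gene Irbp18. Fold changes were modest, from 1.31 for Hus1-like to 1.64 for Ku80. The median log2 difference over the 36 genes was 0.18, against 0.02 over all genes, and 32 of 36 had a value above 0, against 56.0% of all genes. With 1 array left out, 26 to 35 of the 36 were above 0. At an unadjusted p below 0.05, 11 were higher and 1 was lower, where 11.8% and 11.1% of all genes were. All 3 knock-out arrays lay above all 3 w1118 arrays for 9 of the 36 genes, which was so for 15.7% of all genes, and below them for Msh6 alone, which was so for 13.1%.

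**Figure D1:**
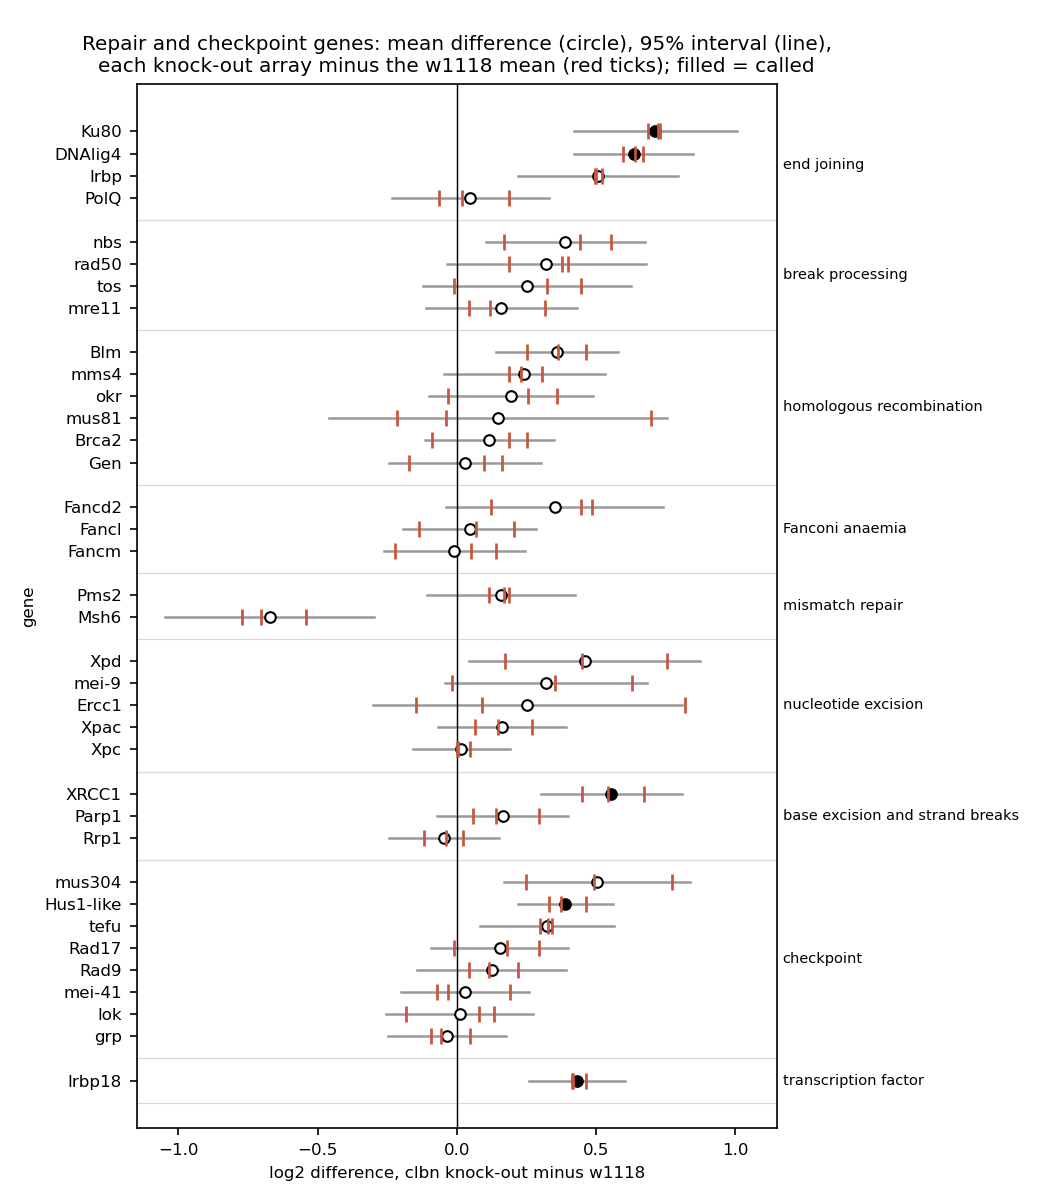
Log2 difference of each of the 36 measured repair and checkpoint genes (rows, grouped by role), clbn knock-out minus w1118, on the horizontal axis. Circles are mean differences, filled for the 5 genes called changed, grey lines are 95% intervals of the limma fit and red ticks are the 3 knock-out arrays, each minus the w1118 mean. Ku80 and DNAlig4 of end joining lie farthest to the right with closely spaced ticks, and Msh6 lies alone on the left at −0.67.

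The 4 end-joining genes had the highest median difference of the roles with more than 1 gene, at 0.57, and 2 of them rose. Ku80 (CG18801, arm 2L) encodes a subunit of the Ku ring that grips broken ends. It read 7.38, 7.69 and 7.17 on w1118 arrays 1 to 3 and 8.14, 8.10 and 8.14 on knock-out arrays 1 to 3. Every knock-out array was above every w1118 array, and the knock-out arrays differed among themselves by only 0.043 log2, against 0.522 among the w1118 arrays. The log2 difference was 0.71 (SE 0.13, 1.64-fold, adjusted p = 0.0266). A narrower range in the knock-out than in w1118 was found for 21 of the 36 genes and for 40.4% of all genes.

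DNAlig4 (CG12176, on X) encodes the ligase that seals the joined ends. Its w1118 values were 6.84, 7.15 and 6.94 and its knock-out values 7.61, 7.64 and 7.57, again without overlap and with the narrower range in the knock-out. It rose by 0.63 log2 (SE 0.09, 1.55-fold, adjusted p = 0.0121). Irbp (CG5247, arm 3R) encodes the Ku70-type partner of Ku80, and read 7.03, 7.43 and 6.96 in w1118 and 7.66, 7.64 and 7.64 in the knock-out. The groups did not overlap, but the difference of 0.51 (SE 0.12) did not pass the threshold (adjusted p = 0.0730). Its adjusted p ranged from 0.0113 to 0.247 over the 14 alternative settings, and it was called in 3 of them (array weights, centring on array medians and leaving out w1118 array 2).

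PolQ (CG6019, arm 3R), also listed as mus308, encodes the polymerase of the alternative end-joining route, which does not use Ku. It read 7.70, 8.01 and 7.60 in w1118 and 7.79, 7.96 and 7.71 in the knock-out. The groups overlapped fully, with a difference of 0.05 and a 95% interval from −0.23 to 0.33 (adjusted p = 0.885). Whether PolQ differed from the Ku and ligase genes in its response was not tested.

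**Figure D2:**
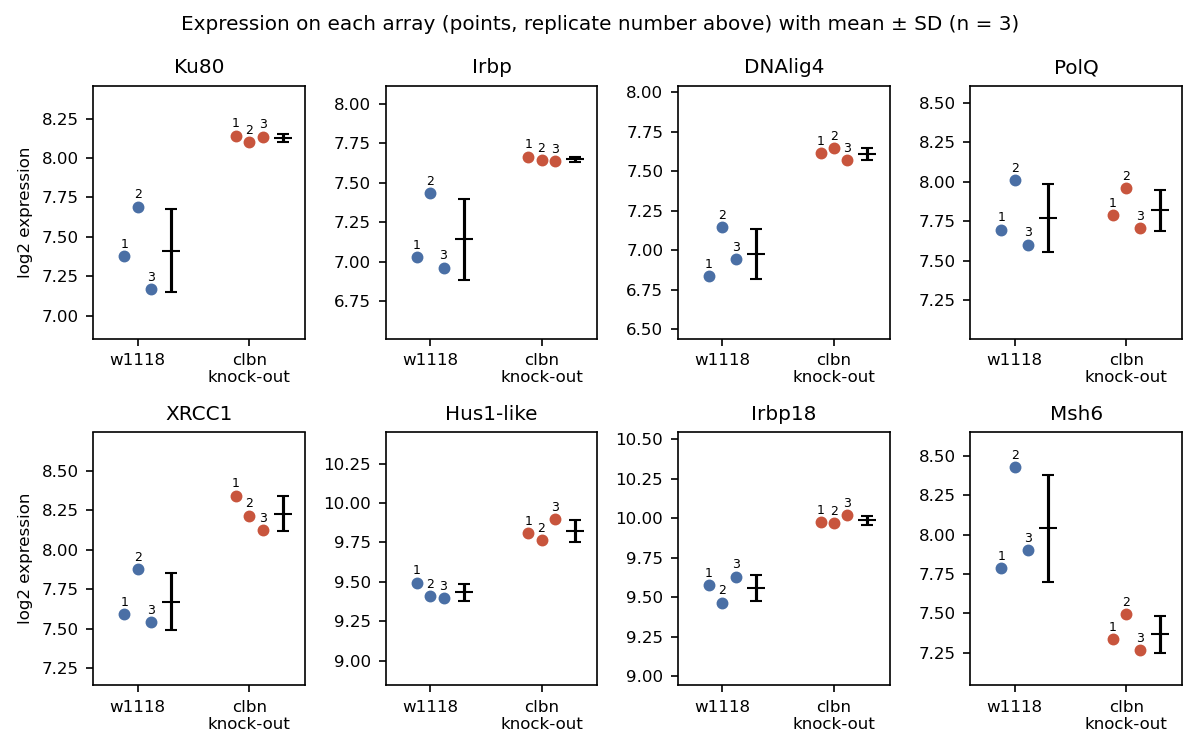
Log2 expression (vertical axis, the same span in every panel) of 8 genes on the 3 w1118 arrays (blue) and the 3 clbn knock-out arrays (red), with replicate numbers above the points and the mean ± SD (n = 3) beside them. The knock-out points of Ku80, Irbp, DNAlig4 and Irbp18 nearly coincide, the groups overlap for PolQ, and for Msh6 all knock-out points lie below w1118.

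The break-processing genes had differences above 0 with none called. The mre11, rad50 and nbs products form the complex that detects and trims broken ends, and tos encodes an exonuclease that extends the trimming. For nbs (CG6754, arm 3L) the values were 8.10, 8.40 and 8.16 in w1118 and 8.66, 8.77 and 8.39 in the knock-out. The lowest knock-out array lay just under the highest w1118 array, and the difference was 0.39 (SE 0.12, adjusted p = 0.141). The differences of rad50, tos and mre11 were 0.32, 0.25 and 0.16 (adjusted p = 0.315, 0.460 and 0.521), all with overlapping groups. The call of nbs was gained only with array weights among the settings tried (adjusted p = 0.0450, range 0.0450 to 0.389).

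None of the 6 homologous recombination genes measured was called, and all 6 had values above 0 on the full set of arrays, with a median of 0.17. The median was 0.081, with 4 of 6 above 0, when knock-out array 1 was left out. Without w1118 array 3 it was 0.12, also with 4 of 6 above 0. It was 0.30 when w1118 array 2 was left out and 0.29 when knock-out array 3 was. Blm (CG6920, arm 3R) encodes a helicase that takes apart recombination intermediates. It read 5.22, 5.08 and 4.96 in w1118 and 5.55, 5.34 and 5.45 in the knock-out. The groups did not overlap, and the difference was 0.36 (SE 0.09, adjusted p = 0.0888). These values lay in the lower part of the arrays, between their first quartile and their median.

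The mms4 and mus81 products together form a nuclease that cuts branched DNA, and their differences were 0.24 and 0.15. The gene mus81 read 7.69, 7.88 and 7.15 in w1118 and 8.27, 7.54 and 7.36 in the knock-out. Its difference turned to −0.13 without knock-out array 1, −0.065 without w1118 array 3 and −0.071 with array weights. For okr, the fly Rad54 gene, and Brca2, which loads the recombinase, the differences were 0.20 and 0.12. Gen, a nuclease gene for four-way junctions, had a difference of 0.03 with a 95% interval from −0.24 to 0.30.

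The Fanconi genes, which act at crosslinks between the strands, were not called. Fancd2 (arm 3R) had a difference of 0.35 (SE 0.17, adjusted p = 0.312), with values of 7.73, 8.17 and 7.56 in w1118 and 8.31, 8.27 and 7.94 in the knock-out. Its dimmer probe set went the other way, with a difference of −0.28 (adjusted p = 0.672), so the direction for this gene was not settled. Fancl, which encodes a ubiquitin ligase, and Fancm, which encodes a DNA translocase, had differences of 0.05 and −0.01.

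Msh6 had the largest difference below 0 among the 36 genes. Its product pairs with the spel1 product to recognise mismatched bases. Msh6 (CG7003, arm 3L) read 7.79, 8.42 and 7.90 on w1118 arrays 1 to 3 and 7.34, 7.50 and 7.27 on knock-out arrays 1 to 3. All knock-out arrays were below all w1118 arrays, and array 2 was the highest in both groups. The difference was −0.67 (SE 0.16, 95% interval from −1.05 to −0.30), which did not pass the threshold (adjusted p = 0.0690). With the replicate number as a block, in which arrays of the same number are compared, it was called (SE 0.10, adjusted p = 0.0256). The 3 differences between arrays of the same number were −0.45, −0.93 and −0.63. Pms2, which acts after mismatch recognition, had a difference of 0.16 (adjusted p = 0.518) with overlapping groups.

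The nucleotide excision genes, which remove bulky lesions, had values above 0 for all 5 measured, and none was called. Xpd (arm 2R), a helicase of the transcription and repair factor TFIIH, had the smallest p, with values of 7.59, 8.05 and 7.54 in w1118 and 8.48, 8.18 and 7.90 in the knock-out. The groups overlapped and the difference was 0.46 (SE 0.18, adjusted p = 0.222). Its probe set carries the suffix that marks sets shared by several transcripts.

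For the nuclease partners mei-9 and Ercc1, knock-out array 1 was the highest array, as it was for Xpd and Xpac but not for Xpc. The gene mei-9 read 6.31, 6.55 and 6.44 in w1118 and 7.06, 6.78 and 6.41 in the knock-out. Its difference of 0.32 (adjusted p = 0.324) stayed above 0 in all 14 settings, from 0.17 without knock-out array 1 to 0.49 without knock-out array 3. Ercc1 read 6.76, 6.79 and 6.36 in w1118 and 7.46, 6.73 and 6.49 in the knock-out. Its difference of 0.25 became −0.03 without knock-out array 1. The median of the 5 nucleotide excision genes was 0.25 on all arrays and 0.11 without that array, the one with the highest 3′ to 5′ difference in the control probe sets. It was 0.45 without knock-out array 3 and 0.11 without w1118 array 3. Xpac, the fly XPA gene, had a difference of 0.16, and the damage sensor Xpc one of 0.02, with a 95% interval from −0.16 to 0.19.

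Among genes of base excision and single-strand breaks, XRCC1 rose. XRCC1 (CG4208, on X) encodes the scaffold on which single-strand breaks are closed. It read 7.59, 7.88 and 7.54 in w1118 and 8.34, 8.22 and 8.12 in the knock-out, without overlap. The difference was 0.56 (SE 0.11, 1.47-fold, adjusted p = 0.0374). Rrp1, which encodes the nuclease for abasic sites, overlapped between the groups at −0.05 (95% interval from −0.24 to 0.15). The Parp1 probe set read between 3.37 and 3.83 on all arrays, under their first quartile, so its difference of 0.17 cannot be told from background.

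Of 8 checkpoint genes, 1 rose and 3 had groups that did not overlap. Hus1-like (CG2525, arm 3R) encodes a subunit of the ring-shaped clamp that marks damage. It read 9.49, 9.41 and 9.40 in w1118 and 9.81, 9.76 and 9.90 in the knock-out. Both groups were tight, and the difference was 0.39 (SE 0.07, 1.31-fold, adjusted p = 0.0334). Rad9, another subunit of the clamp, and Rad17, which loads it, had differences of 0.13 and 0.15 with overlapping groups (adjusted p = 0.628 and 0.493).

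The gene mus304 (CG7347, arm 3L) encodes the partner that brings the ATR kinase to damaged DNA. It read 7.15, 7.24 and 6.92 in w1118 and 7.88, 7.35 and 7.60 in the knock-out. The groups did not overlap, but the knock-out arrays were spread over 0.524 log2, and the difference of 0.50 (SE 0.14) did not pass the threshold (adjusted p = 0.110). The ATR kinase gene itself, mei-41, had a difference of 0.03 (95% interval from −0.20 to 0.26).

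The ATM kinase gene tefu (CG6535, arm 3R) read 7.30, 7.44 and 7.05 in w1118 and 7.56, 7.59 and 7.60 in the knock-out. Its groups did not overlap, and the difference was 0.32 (SE 0.10, adjusted p = 0.146). The genes of the downstream kinases had differences near 0. The Chk2 gene lok had a difference of 0.01 (95% interval from −0.26 to 0.28) and the Chk1 gene grp one of −0.04 (from −0.25 to 0.18). The probe sets used for lok and grp carry the same suffix as that of Xpd, which marks sets shared by several transcripts. The other 2 probe sets of grp, both dimmer, had differences of −0.16 and −0.11 and were not called.

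Irbp18 (CG6272, arm 3L) was listed apart from the other roles, because it encodes a leucine zipper transcription factor. It read 9.57, 9.47 and 9.63 in w1118 and 9.97, 9.97 and 10.02 in the knock-out. The groups did not overlap, and the gene rose by 0.43 log2 (SE 0.07, 1.35-fold, adjusted p = 0.0234).

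The 5 called genes were spread over the genome. Calls in either direction were made for 7.09% of genes on chromosome 3, which carries clbn, and for 2.35% of genes on chromosomes 2 and X. Of the 16 repair and checkpoint genes on chromosome 3, 2 were called (Irbp18 and Hus1-like). Of the 20 on chromosomes 2 and X, 3 were called (Ku80, DNAlig4 and XRCC1). The median difference was 0.24 for the former and 0.18 for the latter.

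Every one of the 5 calls was lost when certain single arrays were left out, while the sign of the difference was kept in all 14 alternative settings. The call of DNAlig4 was lost on leaving out w1118 array 1, w1118 array 3 or knock-out array 2 (adjusted p = 0.0631, 0.0576 and 0.0505). The call of Ku80 was lost without w1118 array 1 or 3 or knock-out array 2 or 3 (0.120, 0.0665, 0.0737 and 0.0782). Irbp18 lost its call without any of the 3 w1118 arrays or knock-out array 2 or 3 (0.0578 to 0.109). The call of XRCC1 was lost without w1118 array 1 or 3 or any of the 3 knock-out arrays (0.0676 to 0.157), and that of Hus1-like without any of the 6 arrays (0.0502 to 0.130). Over the 14 settings the adjusted p ranged from 0.00211 to 0.0631 for DNAlig4, 0.00416 to 0.120 for Ku80, 0.00665 to 0.109 for Irbp18, 0.00714 to 0.157 for XRCC1 and 0.0172 to 0.130 for Hus1-like. With 1 array fewer, calls over the whole array fell too, from 540 genes to between 145 and 459. The count was 145, 411 and 201 without w1118 arrays 1 to 3, and 459, 279 and 270 without knock-out arrays 1 to 3.

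**Figure D3:**
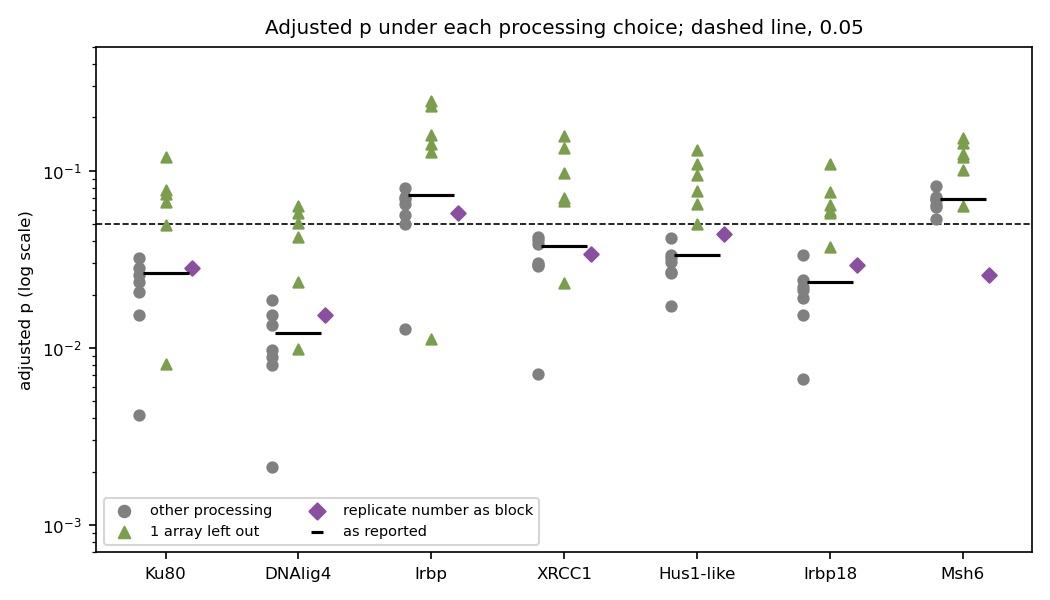
Adjusted p (vertical log axis) of 7 repair and checkpoint genes as reported (black bar), with 1 array left out (green triangles), with the replicate number as a block (purple diamonds) and under the other processing choices (grey circles). The dashed line marks 0.05. The triangles of all 5 called genes reach above the line, and the block brings Msh6 below it at 0.0256.

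The 36 genes did not move equally on all arrays. Of the 36, 34 were above the w1118 mean on knock-out array 2, 31 on knock-out array 1 and 21 on knock-out array 3. Among the knock-out arrays, array 1 was the highest for 22 of the 36 genes, array 2 for 11 and array 3 for 3. Within w1118, array 2 was the highest of the 3 arrays for 32 of the 36 genes, and array 3 was the lowest for 27. Leaving out w1118 array 2 or knock-out array 3 raised the median of the 36 differences to 0.30 or 0.29. It was 0.11 without w1118 array 3, and 0.13 when knock-out array 1 was left out. Between arrays of the same number, 32 of 36 genes were higher in the knock-out for number 1, 22 for number 2 and 28 for number 3.

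Among roles with more than 1 gene, the end-joining median varied least across the knock-out arrays. As a deviation from the 6-array mean of each gene, the median of its 4 genes was 0.30, 0.29 and 0.26 on knock-out arrays 1 to 3. For the 6 homologous recombination genes the same medians were 0.23, 0.12 and −0.14, and for the 4 break-processing genes 0.24, 0.21 and −0.03. The narrow spread of end joining was not seen in w1118, where its medians were −0.38, −0.02 and −0.39 on arrays 1 to 3. On those arrays the medians were −0.05, 0.13 and −0.26 for homologous recombination and −0.26, 0.12 and −0.30 for break processing. Whether the roles differed in this respect was not tested.

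Other gene lists also varied across the same arrays. Over all genes, 1.88% were called higher and 2.63% lower by limma. At an unadjusted p below 0.05, 11.8% of all genes were higher and 11.1% lower. None of 29 DNA replication genes was called by limma, with 4 higher (13.8%) and 0 lower at an unadjusted p below 0.05. That was near the share over all genes, and their median difference was 0.09. All 29 were highest in array 2 among the w1118 arrays, and without that array their median was 0.21. It was 0.027 and 0.063 with w1118 array 3 or 1 left out, and 0.049 when knock-out array 2 was left out. None of 16 genes of mitosis and S phase control was called, with 1 higher and 0 lower at that level. Their median was 0.01, and ranged from −0.044 to 0.11 with 1 array left out. Of 19 maternal and germ line genes 1 was called higher, the gap junction gene zpg, and 4 were higher and 2 lower at an unadjusted p below 0.05. The 2 lower, named after their values were seen, were aub at −0.33 and gcl at −0.31. The median was 0.18, and it was 0.077 without knock-out array 1 and 0.12 without w1118 array 3.

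Lists of differentiated tissues had values mostly below 0 in the knock-out. Of 8 muscle genes measured, 8 were below 0 and 4 were called, with mean levels of 11.14 to 11.43 on the knock-out arrays and at least 11.83 on the w1118 arrays. In the cuticle list 7 of 8 were below 0 and 4 were called (mean levels 8.65 to 8.98 against 9.66 to 9.90). In the neuron list 8 of 8 were below 0 and 1 was called (7.55 to 7.83 against 7.92 to 8.12). Over all genes, 5270 of 11982 were below 0 and 2.63% were called lower. The yolk and chorion list, which marks adult females, had 0 calls by limma and none of its 11 genes at an unadjusted p below 0.05, as had the 11 adult male genes. The part of tissue makeup, embryo age or RNA quality in the repair gene values was not tested.

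**Figure D4:**
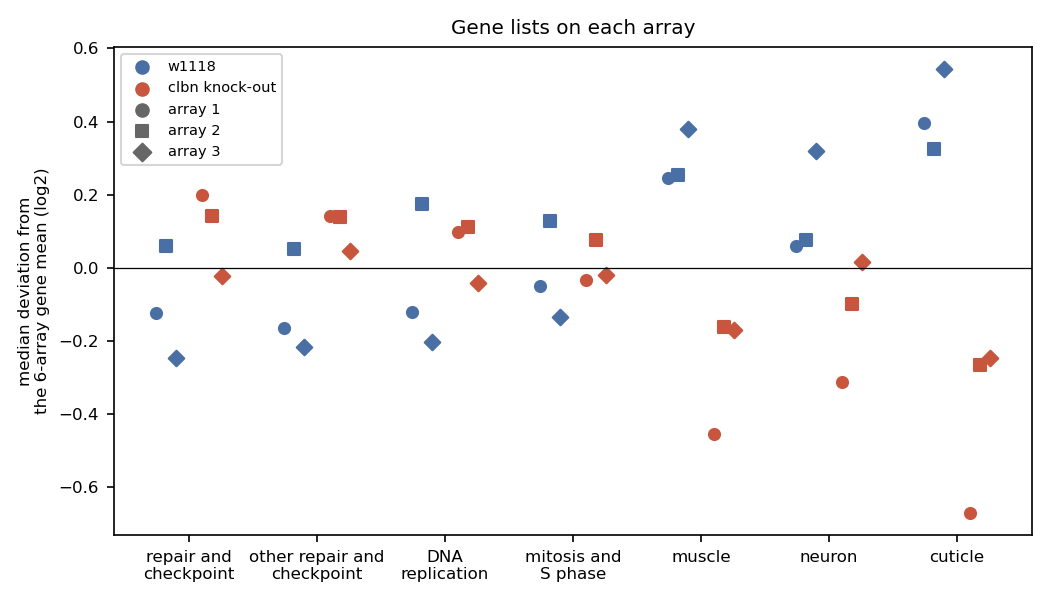
Median deviation of 7 gene lists from the 6-array mean of each gene (vertical axis, log2) on each w1118 array (blue) and clbn knock-out array (red), with symbols for arrays 1 to 3. The repair and checkpoint lists lie mostly higher in the knock-out, with w1118 array 2 (blue square) among the knock-out arrays, and the muscle, neuron and cuticle lists lie lower, lowest on knock-out array 1.

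A separate list held other repair and checkpoint genes. Of 44 measured, 2 rose and none fell, and 38 had values above 0, with a median of 0.18 (0.29 without w1118 array 2). At an unadjusted p below 0.05, 16 were higher and 1 was lower, where 11.8% and 11.1% of all genes were. Over all genes, 1.88% were called higher, 2.63% were called lower and 56.0% had values above 0. Both called genes of this list encode polymerases that copy past damaged bases, the process of translesion synthesis. PolH (CG7143, arm 3L), the polymerase that reads through ultraviolet lesions, had values of 6.84, 7.03 and 6.83 in w1118 and 7.54, 7.73 and 7.40 in the knock-out. It rose without overlap by 0.65 log2 (SE 0.10, 1.57-fold, adjusted p = 0.0169), a call lost without w1118 array 1 or 3 (0.0947 and 0.0748, range over its settings 0.00361 to 0.0947).

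PolZ1 (CG1925, arm 2R), the catalytic subunit of polymerase zeta, read 7.43, 7.68 and 7.52 in w1118 and 8.04, 7.89 and 7.93 in the knock-out. It rose by 0.41 log2 (SE 0.09, 1.33-fold, adjusted p = 0.0496). That call was lost with the replicate block (0.0652), with an intensity trend (0.0730) and without any array other than w1118 array 2 (0.0938 to 0.191). The other 3 translesion genes in the list, named after their values were seen, were not called. Rev1 had a difference of 0.48 (adjusted p = 0.0947) and PolI one of 0.37 (0.107). Their groups did not overlap, and with the replicate block both were called (0.0305 and 0.0443). PolZ2, the accessory subunit of polymerase zeta, had a difference of −0.13 with overlapping groups (adjusted p = 0.467). Snm1, a crosslink nuclease gene and the one lower at an unadjusted p below 0.05, had a difference of −0.25 (adjusted p = 0.0949).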

How the data were processed

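The deposited table held log2 values for 18769 probe sets and 183 Affymetrix controls on 6 arrays. That they are log2 was judged from the deposited values. The submitters' processing notes name affy; how the authors corrected background, summarised or normalised was not stated in the sources used. Probe sets were named from the supplied platform annotation (13647 with 1 symbol, 402 with several, 4720 not listed) and chromosome arms from RefSeq Release 6. Array design builds are not given, so no coordinates are printed.

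The 2 genotypes were compared with limma 3.58.1 under R 4.3.3 (eBayes without covariates, Benjamini-Hochberg over all 18769 probe sets), after a test on simulated data. Python 3.11.15, pandas 2.3.3 and matplotlib 3.10.9 prepared names and plots. No detection calls were used, and 3 arrays per genotype limit the precision. Every measured member was accounted for; of each other list, up to 4 called genes could be named, and other names are marked. Members and lists were chosen with earlier results of these data known.

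The labels number the arrays 1 to 3 in both genotypes. Deviations from the group means correlated at 0.252, 0.227 and 0.390 between arrays of the same number. Between arrays of different numbers the correlations ranged from −0.333 to 0.089. Deviations from a group mean cancel out within the group, so these correlations are not independent of those between arrays of the same number. Because the latter were above 0, a fit with the number as a block was used as an alternative. It takes the numbers as pairs. The values reported are from the fit without a block unless stated. Other alternatives were quantile normalisation, median centring, filters on dim probe sets, an intensity trend, array weights, each array left out, and the mean of a gene's probe sets.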

Additional observations from a re-analysis of the deposited data

How the results depend on the processing

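The count of repair and checkpoint genes called was 5. It was 6 with the replicate block, which added Msh6, 6 with median centring and 7 with array weights. It was 5 with quantile normalisation, both filters on dim probe sets, the intensity trend and the mean of a gene's probe sets. Calls over all genes changed too, from 4.51% in the fit without pairing to 6.44% with the block. They were 4.83% with median centring and 10.1% with array weights. In the settings that gave 5, they lay between 4.50% and 5.93%. Leaving out 1 array, which also leaves fewer samples, gave 0 to 4. The count was 0 without w1118 array 1, w1118 array 3 or knock-out array 2, whereas leaving out knock-out array 3 gave 1 and leaving out knock-out array 1 gave 3. The replicate block changed no other call among the 36 genes. The clbn difference ranged from −3.07 to −2.75 and was called in all 14 settings. The median over the 36 genes and those by role moved by less than the spread between replicates in every setting that gave them. This comparison does not tell how stable the medians are. The block and the intensity trend leave them unchanged by design. Leaving out 1 of 3 arrays shifts a group mean by only a part of the deviation of that array. The dim filters removed Parp1, and the stricter one also Blm and Rad9. Differences of 11 uncalled genes changed sign in some setting, and the cause was not tested. With quantile normalisation the values were 0.029 for Fancm, −0.0079 for Xpc and −0.0064 for lok. With median centring the values were 0.064 for Fancm, 0.027 for Rrp1 and 0.037 for grp. With array weights the values were −0.071 for mus81, 0.089 for Fancm, −0.015 for Fancl, −0.016 for Xpc, 0.045 for Rrp1, −0.0031 for lok and 0.013 for grp. With 1 array left out the values ranged over −0.050 to 0.080 for mei-41, −0.056 to 0.11 for lok, −0.085 to 0.10 for Fancm, −0.10 to 0.012 for Rrp1, −0.083 to 0.045 for grp, −0.036 to 0.17 for PolQ, −0.13 to 0.33 for mus81, −0.046 to 0.13 for Gen, −0.034 to 0.14 for Fancl, −0.036 to 0.048 for Xpc and −0.028 to 0.45 for Ercc1.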
